A study of Mus musculus with 4 samples.

Results

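Arg1-expressing macrophages are brain-infiltrating myeloid cells that carry arginase 1 transcripts. They were chosen cell by cell from measured values, as barcodes with at least 200 detected genes, at most 10% mitochondrial UMIs (unique molecular identifiers, each standing for a captured transcript), at least 5 UMIs over the macrophage genes Lyz2, Csf1r and Cd68, and at least 3 UMIs of Arg1. Cells with more than 1 UMI of the microglial genes P2ry12, Tmem119 and Sall1, or more than 1 of the T cell genes Cd3d, Cd3e and Cd3g, were left out. So were cells with any UMI of Flt3, a dendritic cell gene, or Retnlg, a neutrophil gene, and cells with 2 or more UMIs of Nos2 or of Retnla. The rule found 4791 cells among 28661 barcodes, which was 18.4% of the 26014 cells that passed the gene and mitochondrial limits and 45.9% of the 10429 macrophages that met every limit other than the Arg1 minimum. The remaining 5638 of those macrophages, with fewer than 3 Arg1 UMIs, are called other macrophages here. Since Arg1 chose the cells, Arg1 itself is given as a description.

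The cells were live CD45.2-positive immune cells from the brains of mice injected with GL261, a mouse glioma line. There were 4 groups with 1 library each, namely IFNaR-/- mice (KO, which lack the type I interferon receptor) without treatment at day 20, WT mice without treatment at day 20, KO mice given anti-PD1 and sorted at day 25, and WT mice given anti-PD1 and sorted at day 25. Anti-PD1, an antibody against the checkpoint receptor PD-1 of T cells, was given intraperitoneally in 4 doses of 200 ug, on days 7, 11, 15 and 19 after the tumour cells. All 4 groups carried the tumour, and suspensions were pooled before sorting, while CD3-positive and CD3-negative cells were combined in equal parts in both anti-PD1 groups. The labels used here give neither the number of animals in a pool nor their age or sex. With 1 library per group there is no spread between replicates, so no test was run, and every interval is a 95% interval for counting error alone. The series text sets the question as what checkpoint blockade does to immune cells without interferon signalling.

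Arginase 1 splits arginine into urea and ornithine, and ornithine feeds the polyamines and the proline of collagen. It competes for arginine with inducible nitric oxide synthase, the product of Nos2. Macrophages that express it are known from healing wounds, parasite infection and tumours, where loss of arginine restrains T cells. The type I interferon receptor acts through STAT and IRF9 proteins that bind interferon-stimulated response elements in the promoters of antiviral genes.

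The libraries held 3705, 6662, 8764 and 9530 barcodes in the order untreated KO, untreated WT, anti-PD1 KO and anti-PD1 WT, and the members had a median of 11394 UMIs in untreated KO, 9752 in untreated WT, 5636 in anti-PD1 KO and 9434 in anti-PD1 WT. The labels name a single kit for all libraries, yet the libraries differed in kind. For every 100 UMIs of T cell receptor constant segments, T cells held 1.62 UMIs of variable segments in untreated KO, 1.79 in untreated WT, 8.23 in anti-PD1 KO and 205 in anti-PD1 WT. Ribosomal protein genes took 16.4% of the members' UMIs in untreated KO and 15.0% in untreated WT, against 16.1% in anti-PD1 KO and 10.8% in anti-PD1 WT. The anti-PD1 WT library thus stood apart from anti-PD1 KO, and what that does to any gene was not tested. The anti-PD1 KO and WT libraries shared 95 cell barcodes (1.08% of KO and 0.997% of WT barcodes), 3 of them among the members, while other pairs of libraries shared 0 to 3. Ifnar1 and Ifnar2, the receptor's subunit genes, were read in the members of every library (Ifnar1 at 114 CPM in untreated KO and 119 CPM in untreated WT cells, and 141 CPM in anti-PD1 KO and 74.7 CPM in anti-PD1 WT cells), but since the labels name neither the subunit nor the deleted stretch, they are no check on genotype. Isg15, an antiviral gene downstream of the receptor, did separate the genotypes, at 107 CPM in untreated KO and 1035 CPM in untreated WT cells, and 74.8 CPM in anti-PD1 KO and 1056 CPM in anti-PD1 WT cells.

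Arg1-expressing macrophages made up a larger part of the macrophages in the KO library of each pair. Without treatment they were 418 of 845 macrophages in KO, or 49.5% (46.0 to 52.9%, exact Clopper-Pearson interval), against 275 of 1683 in WT, or 16.3% (14.6 to 18.2%). After anti-PD1 they were 2339 of 4039 in KO, or 57.9% (56.4 to 59.4%), against 1759 of 3862 in WT, or 45.5% (44.0 to 47.1%). The gap between KO and WT was 33.1 percentage points without treatment and 12.4 after anti-PD1. The intervals cover counting error among the cells of a library alone. Without replicate libraries they cannot tell a difference of genotype from a difference between libraries. Among all cells that passed the gene and mitochondrial limits, the members were 14.9% in KO and 5.22% in WT without treatment, and 27.6% in KO and 18.6% in WT after anti-PD1. The equal mix of CD3-positive and CD3-negative cells bears on the shares after anti-PD1. In macrophages thinned at random to 3000 UMIs each, at least 3 Arg1 UMIs were found in 31.7% (28.5 to 35.1%) in KO and 11.1% (9.56 to 12.8%) in WT without treatment. The thinned shares after anti-PD1 were 54.7% (52.8 to 56.5%) in KO and 34.9% (33.3 to 36.5%) in WT. Thinning left out 54 shallower macrophages in untreated KO, 159 in untreated WT, 1160 in anti-PD1 KO and 373 in anti-PD1 WT.

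**Figure D1:**
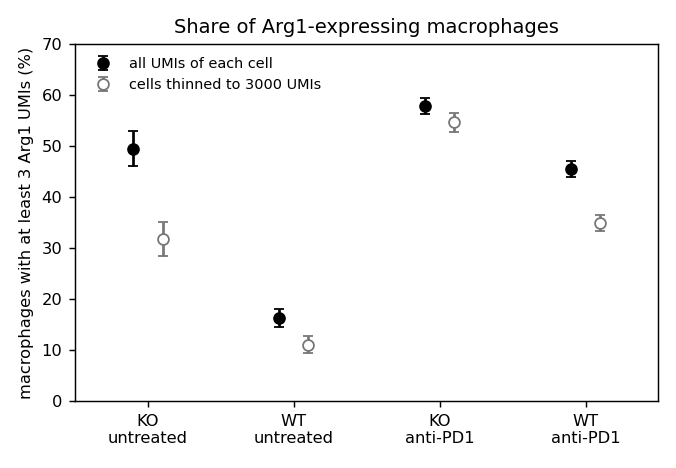
Share of macrophages with at least 3 Arg1 UMIs in each library, in percent, with 95% exact binomial intervals for counting error. Filled points use all UMIs and open points use cells thinned to 3000 UMIs. KO lies above WT in both pairs on both scales, with 49.5% in KO against 16.3% in WT without treatment and 57.9% in KO against 45.5% in WT after anti-PD1 at full depth.

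Arg1 UMIs were also found in T cells, which should lack the gene. At least 3 Arg1 UMIs were found in 0.317% of T cells in untreated KO, 0.0722% in untreated WT, 2.08% in anti-PD1 KO and 0.205% in anti-PD1 WT, all far under the macrophage shares above. At least 1 UMI was found in 2.22% of T cells in untreated KO and 2.02% in untreated WT, and in 18.7% in anti-PD1 KO and 8.61% in anti-PD1 WT, so the background share at a lone UMI was highest in anti-PD1 KO. At the edge of the rule, 30 cells of untreated KO, 31 of untreated WT, 198 of anti-PD1 KO and 147 of anti-PD1 WT had exactly 3 Arg1 UMIs. Exactly 2 UMIs were held by 42 cells of untreated KO, 36 of untreated WT, 269 of anti-PD1 KO and 200 of anti-PD1 WT. The median member had 14 Arg1 UMIs in untreated KO, 10 in untreated WT, 12 in anti-PD1 KO and 14 in anti-PD1 WT. Members with 30 or more made up 98 cells in untreated KO, 44 in untreated WT, 433 in anti-PD1 KO and 410 in anti-PD1 WT.

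The other macrophage states that the rule sets aside were unevenly spread. Macrophages with at least 2 Nos2 UMIs numbered 15 in untreated KO and 53 in untreated WT, and 293 in anti-PD1 KO and 2160 in anti-PD1 WT, which was 35.9% of the anti-PD1 WT macrophages before that limit. Of these, 7 in untreated KO, 15 in untreated WT, 271 in anti-PD1 KO and 1556 in anti-PD1 WT also had at least 3 Arg1 UMIs. Macrophages with at least 2 UMIs of Retnla, which encodes a secreted protein of alternatively activated mouse macrophages, numbered 18 in untreated KO and 1 in untreated WT, and 422 in anti-PD1 KO and 1 in anti-PD1 WT. Of the KO cells, 15 without treatment and 362 after anti-PD1 also had at least 3 Arg1 UMIs. With both kinds kept, cells with at least 3 Arg1 UMIs were 50.1% of macrophages in untreated KO and 16.8% in untreated WT, and 62.2% in anti-PD1 KO and 55.0% in anti-PD1 WT. The gap after anti-PD1 was then 7.17 percentage points.

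Of the genes that mark these cells beside Arg1, Fn1 was higher in members than in other macrophages in every library, and Thbs1 in all but untreated WT. All values below are CPM, counts per 1e6, that is the UMIs of a gene as a part of all UMIs summed over the members of a library. Arg1 (chromosome 10, 24915221 to 24927484, minus strand, GRCm38) stood at 1691 CPM in untreated KO members, 1957 CPM in untreated WT members, 2923 CPM in anti-PD1 KO members and 2186 CPM in anti-PD1 WT members, a level the rule itself sets. The general macrophage genes Adgre1 (F4/80) and Itgam (CD11b), which the rule did not use, were read in the members of every library, Adgre1 at 152 CPM in untreated KO and 116 CPM in untreated WT cells, and 219 CPM in anti-PD1 KO and 139 CPM in anti-PD1 WT cells. Fn1, fibronectin (chromosome 1, 71585520 to 71653200, minus strand), stood at 2444 CPM in members and 1073 CPM in other macrophages of untreated KO, 366 CPM in members and 251 CPM in others of untreated WT, 920.1 CPM in members and 258 CPM in others of anti-PD1 KO, and 309 CPM in members and 124 CPM in others of anti-PD1 WT. Members were higher in all 4. Thbs1, thrombospondin 1 (chromosome 2, 118111876 to 118127133, plus strand), stood at 748 CPM in members and 561 CPM in others of untreated KO, 974 CPM in members and 467 CPM in others of anti-PD1 KO, and 843 CPM in members and 561 CPM in others of anti-PD1 WT. In untreated WT it was 439 CPM in members against 445 CPM in others, a log2 ratio of -0.02 (-0.11 to 0.07), so there Thbs1 did not mark these cells.

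Within the macrophages, Fn1 was highest in the cells with 30 or more Arg1 UMIs in every library. It rose at each step of Arg1 UMIs in both anti-PD1 libraries, but not in the untreated ones. In untreated WT it was 228 CPM in cells with 1 to 2 Arg1 UMIs, 397 CPM with 3 to 4, 239 CPM with 5 to 9 and 320 CPM with 10 to 29. In untreated KO it was 1449 CPM with 1 to 2 and 1243 CPM with 3 to 4. In untreated KO it was 3217 CPM in cells with 30 or more Arg1 UMIs against 970.1 CPM in cells with none, and in untreated WT 559.6 against 254 CPM. In anti-PD1 KO it was 1165 against 191 CPM, and in anti-PD1 WT 401 against 108 CPM. Ly6c2, a surface protein of inflammatory monocytes, ran the other way in 3 libraries, at 784 against 1729.8 CPM in untreated WT, 795 against 1349 CPM in anti-PD1 WT and 48.4 against 121 CPM in untreated KO, but 9.28 against 4.86 CPM in anti-PD1 KO. Isg15 did too, at 797 against 2359 CPM in untreated WT, 836 against 1522 CPM in anti-PD1 WT and 86.2 against 169 CPM in untreated KO, but 68.2 against 46.1 CPM in anti-PD1 KO. Chil3, which encodes a chitinase-like lectin typical of alternative activation in mice, was 5437 against 1689.7 CPM in untreated KO and 709 against 42.8 CPM in anti-PD1 KO, while in untreated WT it was 228 against 267 CPM. Cells with more Arg1 UMIs were also deeper, with a median of 13105 UMIs at 30 or more against 9337 at none in untreated KO, and 12711 against 6790 in anti-PD1 WT.

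**Figure D2:**
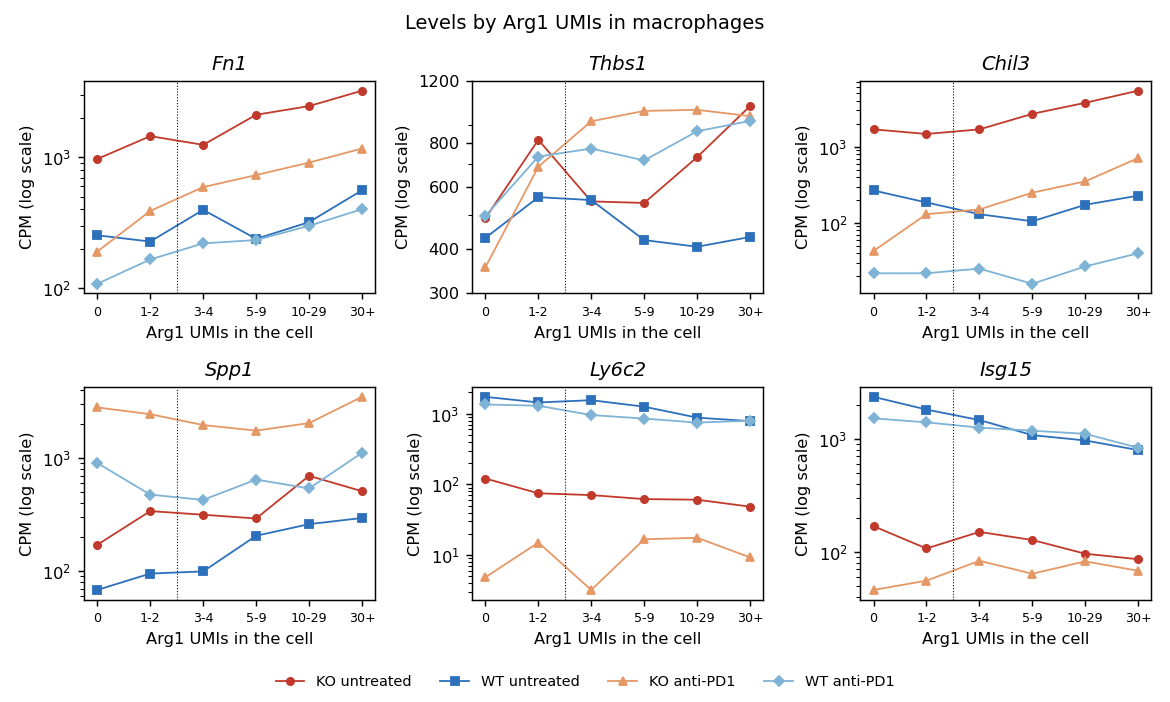
Level of 6 genes (CPM, log scale) in macrophages grouped by their Arg1 UMIs, in each library, with the dotted line at the minimum of 3. Fn1 is highest at 30 or more Arg1 UMIs in all 4 libraries. Thbs1 is highest at that step in untreated KO and anti-PD1 WT, but not in untreated WT or anti-PD1 KO. Ly6c2 and Isg15 are lowest or near lowest at that step in both WT libraries.

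Against the other macrophages of their own library, members carried more transcripts of Pdpn, Slc7a2, Ccl8, Ccl24 and Mrc1 and fewer of dendritic cell genes. Over 8220 genes measured in all 4 libraries, 10 were at least 2-fold higher in members in every library and 11 at least 2-fold lower. The share of all genes at least 2-fold higher in members was 1.6% in untreated KO, 2.31% in untreated WT, 1.46% in anti-PD1 KO and 0.714% in anti-PD1 WT, and at least 2-fold lower 1.52%, 3.27%, 4.05% and 2.16%. Since the cells were split by Arg1, these ratios are descriptions.

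Pdpn, podoplanin, a mucin-like surface protein, stood at 20.0 CPM in members and 6.08 CPM in others of untreated KO, 25.2 CPM in members and 3.90 CPM in others of untreated WT, 93.8 CPM in members and 21.5 CPM in others of anti-PD1 KO, and 121 CPM in members and 30.8 CPM in others of anti-PD1 WT. That was 3.24- to 6.43-fold higher in members than in other macrophages, in every library. Slc7a2, a transporter that brings arginine into the cell, was 2.39-fold higher in members of untreated KO, 5.41-fold in untreated WT, 4.16-fold in anti-PD1 KO and 2.88-fold in anti-PD1 WT. The chemokine gene Ccl8 was 11.7-fold higher in members of untreated KO and 5.59-fold in untreated WT, and 3.20-fold in anti-PD1 KO and 2.64-fold in anti-PD1 WT. Ccl24, a chemokine for eosinophils, was 3.22- to 7.71-fold higher, and Mrc1, the mannose receptor, 2.18- to 5.68-fold. The rest of the highest 10 were the coagulation factor F7, the platelet factor gene Pf4, the acid phosphatase Acp5 and the protease cathepsin K (Ctsk), with log2 ratios between 1.01 and 2.64, and Nxpe5.

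At the low end stood Ccr7, the receptor that guides dendritic cells to lymph nodes, at 0.571 CPM in members and 19.9 CPM in others of untreated KO, 2.77 CPM in members and 21.4 CPM in others of untreated WT, 2.51 CPM in members and 22.4 CPM in others of anti-PD1 KO, and 1.51 CPM in members and 38.3 CPM in others of anti-PD1 WT. Ccl17, Ccl22, Cd209a and Dpp4, genes often read in dendritic cells, were lower in members in all 4 libraries as well. The summed level of 9 dendritic cell genes outside the rule was 31.8 CPM in members and 147 CPM in others of untreated KO, 9.33 CPM in members and 87.1 CPM in others of untreated WT, 31.0 CPM in members and 169 CPM in others of anti-PD1 KO, and 10.3 CPM in members and 84.6 CPM in others of anti-PD1 WT. The other macrophages therefore carried more dendritic cell transcripts, and their part in the ratios of the remaining genes was not tested. Kmo, P2ry10, Gpr183, Ramp3 and Kit completed the low end.

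**Figure D3:**
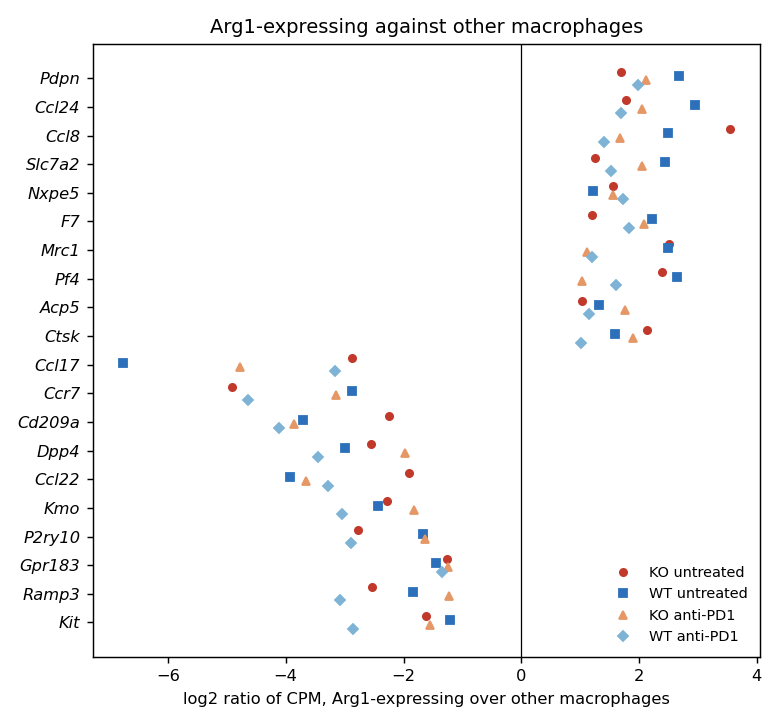
Log2 ratio of CPM, Arg1-expressing over other macrophages, for the 10 highest and 10 lowest genes, 1 point per library. The genes were picked for lying on the same side in all 4 libraries, so the side is fixed by the choice, while the spread of the points shows how far the libraries differ in size.

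By gene list, the share of all measured genes that were higher in members at all was 51.3% in untreated KO, 53.5% in untreated WT, 42.9% in anti-PD1 KO and 38.1% in anti-PD1 WT, and the share lower 48.7%, 46.5%, 57.1% and 61.9%. Hypoxia and glycolysis genes were on the higher side more often than that, with 21 of 32 measured genes higher in untreated KO, 29 of 33 in untreated WT, 28 of 36 in anti-PD1 KO and 28 of 34 in anti-PD1 WT. Their median log2 ratios were 0.11, 0.53, 0.36 and 0.21, beside 0.01, 0.03, -0.06 and -0.07 over all genes. Oxidative phosphorylation genes were higher in members for 33, 34, 42 and 30 of 43 genes in the same order of libraries, with small medians of 0.09, 0.09, 0.33 and 0.05. Matrix and wound repair genes were near the all-gene share without treatment, with 18 of 32 higher in untreated KO and 18 of 33 in untreated WT (medians 0.29 and 0.36), and above it after anti-PD1, with 25 of 34 higher in KO and 23 of 32 in WT (medians 0.54 and 0.31). Interferon-stimulated genes were lower in members in both WT libraries, with 65 of 68 lower and a median of -0.81 without treatment and 62 of 68 lower and -0.32 after anti-PD1. In KO, 46 of 52 were lower in members without treatment (median -0.54), whereas after anti-PD1 20 of 53 were lower (median 0.11). Monocyte genes followed the same split, with medians of -0.64 in untreated KO, -0.92 in untreated WT and -0.60 in anti-PD1 WT, against 0.31 in anti-PD1 KO. Tissue macrophage genes had medians of 0.66 in untreated KO and 0.61 in untreated WT, and -0.27 in anti-PD1 KO and -0.02 in anti-PD1 WT. The 8 microglial genes outside the rule summed to 1349.6 CPM in members and 2758 CPM in others of anti-PD1 KO and 1429 CPM in members and 1835 CPM in others of anti-PD1 WT. In the untreated libraries they summed to 303 CPM in members and 312 CPM in others of KO and 291 CPM in members and 223 CPM in others of WT, and their part in the list medians was not tested. Members had more UMIs per cell than others, at a median of 11394 against 9531 in untreated KO, 9752 against 6883 in untreated WT, 5636 against 3860 in anti-PD1 KO and 9434 against 6832 in anti-PD1 WT.

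Between genotypes, KO members carried fewer interferon-stimulated transcripts and more fibronectin, Chil3 and Mrc1 transcripts than WT members in both pairs. Of the alternative activation list, 20 of 21 genes were higher in KO without treatment, where 54.6% of all genes were. After anti-PD1 it was 14 of 21, where 57.6% of all genes were. The monocyte genes Ly6c2, Plac8 and Ly6i were lower in KO in both pairs, but the monocyte gene Ccr2 was higher. The monocyte list as a whole had a median log2 ratio of 0.10 without treatment and -0.93 after anti-PD1. Fold differences below are followed by their 95% interval, and where 2 fold values or medians are given together the first is of the untreated and the second of the anti-PD1 pair. In the untreated pair, 323 of 8635 measured genes (3.74%) were at least 2-fold higher in KO members and 266 (3.08%) at least 2-fold lower. In the anti-PD1 pair, 961 of 10561 genes (9.1%) were at least 2-fold higher in KO members and 732 (6.93%) at least 2-fold lower. Of the 8556 genes measured in both pairs, 112 were at least 2-fold higher in KO in both, which was 37.7% of those in the untreated pair and 19.6% of those in the anti-PD1 pair. At least 2-fold lower in both were 158 genes, 62.9% of the untreated and 29.4% of the anti-PD1 genes. The anti-PD1 pair also differed in the kind of library, which cannot be told apart from genotype there. With TMM scaling the part of the anti-PD1 genes past 2-fold that was higher in KO was 46.3% in place of 56.8%, and the all-gene median moved by 0.12.

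Interferon-stimulated genes were lower in KO members throughout. All 67 measured genes of the list were lower without treatment and all 68 after anti-PD1, with 60 and 62 of them at least 2-fold lower, where 45.4% and 42.4% of all genes were lower at all. The list's median log2 ratio was -2.39 without treatment and -2.67 after anti-PD1, beside 0.05 and 0.12 over all genes. Oas1g, which makes the activator of an antiviral nuclease (chromosome 5, 120876142 to 120887613, minus strand), had 0 UMIs in KO against 30.1 CPM in WT members without treatment, and 0 UMIs in KO against 41.5 CPM in WT members after anti-PD1. Against a floor of 3 UMIs per library it was at least 52.7-fold lower without treatment and at least 215-fold lower after anti-PD1. Slfn4, a Schlafen gene of myeloid cells, had 2 UMIs in KO against 434 UMIs in WT members without treatment and 1 UMI in KO against 650 UMIs in WT members after anti-PD1, which as ratios of CPM made 316-fold (108 to 3265) and 378-fold (101 to 22414). Ifi44 had 0 UMIs in KO against 91 in WT members without treatment, and 3 UMIs in KO against 414 in WT members after anti-PD1. KO members were thus at or near 0 for all 3 genes while WT members were not. The other macrophages of the same libraries gave list medians of -2.61 and -3.08, with 65 of 68 genes at least 2-fold lower in KO without treatment (4.57% of all genes there) and 67 of 68 after anti-PD1 (8.86% of all genes). In the members, 3.08% and 6.93% of all genes were that much lower.

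Outside the lists, the genes lowest in KO members in both pairs included more of the same kind. Ifi208 and Ifi206 encode DNA-sensing family proteins whose close relatives can share reads, so their split is uncertain. Ifi208 had 0 UMIs in KO against 108 in WT members without treatment and 1 UMI in KO against 214 in WT members after anti-PD1. Ifi206 stood at 4.00 CPM in KO against 99.5 CPM in WT cells without treatment, and 0.836 CPM in KO against 52.2 CPM in WT cells after anti-PD1. The PHD finger gene Phf11a stood at 0.951 CPM in KO against 20.7 CPM in WT cells without treatment, and 1.61 CPM in KO against 23.3 CPM in WT cells after anti-PD1, 20.0-fold (8.84 to 69.6) and 14.2-fold (9.66 to 22.6) lower in KO. Siglec1, sialoadhesin, a sialic acid receptor of macrophages, was 10.8-fold (5.34 to 27.7) lower in KO members without treatment and 5.30-fold (4.11 to 7.01) lower after anti-PD1. The class I-like gene H2-T24 and the helicase gene Helz2 were 7.63-fold and 6.99-fold lower without treatment, and 12.7-fold and 7.79-fold lower after anti-PD1.

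The promoters of 3 of these genes are shown because each holds the core of an interferon-stimulated response element. They run 5′ to 3′ from 250 bases before to 50 bases after the RefSeq start on GRCm38.p6, and capitals mark the motif, GAAA, any 2 bases and GAAA again, which was searched on both strands (on the other strand as TTTC, any 2 bases and TTTC). Oas1g (chr5:120887564-120887863, minus strand) has 2 overlapping matches, the first beginning 18 bases before the start. Ifi208 (chr1:173673415-173673714, plus strand) has 1 match beginning 58 bases before the start, and Phf11a (chr14:59297473-59297772, minus strand) has 1 beginning 29 bases before it.
Oas1g: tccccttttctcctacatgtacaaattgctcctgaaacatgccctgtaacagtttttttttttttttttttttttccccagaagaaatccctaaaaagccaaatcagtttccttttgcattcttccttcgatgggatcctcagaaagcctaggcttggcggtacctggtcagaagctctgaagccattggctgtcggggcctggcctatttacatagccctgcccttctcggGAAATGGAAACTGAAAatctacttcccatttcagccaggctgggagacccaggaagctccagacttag
Ifi208: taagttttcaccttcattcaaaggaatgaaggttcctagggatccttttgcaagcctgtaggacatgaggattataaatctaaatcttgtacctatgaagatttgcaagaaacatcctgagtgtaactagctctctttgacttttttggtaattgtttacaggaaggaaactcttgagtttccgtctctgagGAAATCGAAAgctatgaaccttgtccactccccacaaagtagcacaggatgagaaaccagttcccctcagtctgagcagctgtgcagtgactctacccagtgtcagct
Phf11a: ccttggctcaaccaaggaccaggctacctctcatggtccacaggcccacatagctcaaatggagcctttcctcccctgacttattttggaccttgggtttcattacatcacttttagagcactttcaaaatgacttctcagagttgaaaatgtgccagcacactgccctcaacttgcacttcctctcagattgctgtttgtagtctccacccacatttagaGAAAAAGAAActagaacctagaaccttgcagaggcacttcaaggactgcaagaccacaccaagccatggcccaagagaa

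The motif was in the windows of 28 of the 55 interferon-stimulated genes that matched a RefSeq window, or 50.9%, where the list has 68 genes among those measured. It was in 41 of the 121 matched genes at least 2-fold lower in KO members in both pairs (33.9%) and in 5 of the 81 at least 2-fold higher in both (6.17%). Over all 27025 genes with a window the share was 3.99%, and over the 6825 matched genes measured in both pairs 4.25%. These shares describe the letters of the windows and no binding was measured. The windows of Slfn4, Ifi44, Helz2, Chil3 and Mrc1 held no match.

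Genes of antigen presentation and of the response to interferon-gamma, a separate cytokine, were mostly lower in KO members, with medians further below 0 in the anti-PD1 than in the untreated pair. The MHC class I list had 18 of 23 genes lower in KO without treatment (median -0.68) and 20 of 23 after anti-PD1 (median -1.06), where 45.4% and 42.4% of all genes were. H2-Q7, a class Ib molecule of the Qa family, stood at 84.3 CPM in KO against 464 CPM in WT cells without treatment, and 129.5 CPM in KO against 635 CPM in WT cells after anti-PD1. KO was 5.50-fold (4.94 to 6.14) and 4.90-fold (4.67 to 5.14) lower, and the neighbouring family members H2-Q6 and H2-Q4, whose reads may be shared with it, lay on the same side. Interferon-gamma linked genes were lower for 19 of 25 genes (median -0.52) and 26 of 27 (median -1.08), beside the same 45.4% and 42.4% of all genes. The immunity GTPase Igtp stood at 42.1 CPM in KO against 109.9 CPM in WT cells without treatment, and 29 CPM in KO against 103 CPM in WT cells after anti-PD1, and its relatives Irgm1 and Gbp6 were lower too, Irgm1 by 2.58-fold and 3.25-fold and Gbp6 by 2.43-fold and 4.27-fold. MHC class II genes had a median of -0.07 without treatment and -0.75 after anti-PD1. H2-Ab1, a class II chain, stood at 5369 CPM in KO against 6474 CPM in WT cells without treatment, and 7074 CPM in KO against 11862 CPM in WT cells after anti-PD1. The untreated class II median changed sign, to 0.10, when each cell weighed alike.

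Inflammatory genes were also lower in KO members, for 19 of 23 genes without treatment (median -0.33) and 23 of 24 after anti-PD1 (median -1.06), where 45.4% and 42.4% of all genes were. Ccl5, a chemokine that draws T cells, stood at 233 CPM in KO against 1149.6 CPM in WT cells without treatment, and 1246 CPM in KO against 4805 CPM in WT cells after anti-PD1, 4.94-fold (4.63 to 5.28) and 3.86-fold (3.80 to 3.92) lower in KO. Acod1, which makes the metabolite itaconate, stood at 69.1 CPM in KO against 176 CPM in WT cells without treatment, and 70.5 CPM in KO against 232 CPM in WT cells after anti-PD1. The cytokine gene Il18 was 2.26-fold (1.63 to 3.15) and 2.57-fold (2.20 to 3.01) lower in KO members, and the monocyte chemokines Ccl2 and Ccl7 lay between 2.39-fold and 3.56-fold lower. Ccl9, another chemokine, was higher in KO, at 509 CPM in KO against 197 CPM in WT cells without treatment, and 377 CPM in KO against 85.1 CPM in WT cells after anti-PD1. Among complement genes, Cfb, factor B of the alternative pathway, stood at 25.3 CPM in KO against 105 CPM in WT cells without treatment, and 95.4 CPM in KO against 720.1 CPM in WT cells after anti-PD1, lower in KO in both pairs.

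Of the alternative activation genes, 20 of 21 were higher in KO members without treatment and 14 of 21 after anti-PD1, where 54.6% and 57.6% of all genes were higher at all. At least 2-fold higher were 9 and 11 of them, against 3.74% and 9.1% of all genes. The medians were 0.49 (0.24 to 2.42) and 1.14 (-0.11 to 2.86), and the interval after anti-PD1 spans 0. The share higher at all was then near that of all genes. Chil3 (chromosome 3, 106147554 to 106167564, minus strand) stood at 3753 CPM in KO against 163 CPM in WT cells without treatment, and 418 CPM in KO against 28.5 CPM in WT cells after anti-PD1. It was 22.9-fold (21.0 to 25.2) and 14.7-fold (13.4 to 16.1) higher in KO, and the untreated KO library lay above the other 3. Mrc1, which binds mannose-bearing glycoproteins, stood at 1819 CPM in KO against 198 CPM in WT cells without treatment, and 499 CPM in KO against 83.7 CPM in WT cells after anti-PD1, 9.16-fold (8.43 to 9.99) and 5.96-fold (5.64 to 6.30) higher in KO. Ear2, an eosinophil-associated ribonuclease whose relatives can share reads, had 1012 UMIs in KO against 65 in WT without treatment and 2849 UMIs in KO against 11 in WT after anti-PD1. Ccl24 stood at 6197 CPM in KO against 1158 CPM in WT cells without treatment, and 1894 CPM in KO against 104 CPM in WT cells after anti-PD1, 5.35-fold (5.17 to 5.55) and 18.3-fold (17.4 to 19.2) higher in KO. The other macrophages of the same libraries had list medians of 0.87 and 0.90. Cells with 2 or more Retnla UMIs are outside these values by rule.

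Of the matrix and wound repair genes, 22 of 30 were higher in KO members without treatment, where 54.6% of all genes were (median 0.32). After anti-PD1 it was 22 of 33, where 57.6% of all genes were (median 0.48), a share near that of all genes. Fn1 stood at 2444 CPM in KO against 366 CPM in WT cells without treatment, and 920.1 CPM in KO against 309 CPM in WT cells after anti-PD1. It was 6.67-fold (6.27 to 7.11) and 2.97-fold (2.88 to 3.07) higher in KO. In cells thinned to 3000 UMIs, 83.6% of untreated KO and 45.1% of untreated WT members had an Fn1 UMI, and 65.2% of anti-PD1 KO and 41.6% of anti-PD1 WT members, beside 0.837% to 4.05% of T cells thinned alike. Spp1, osteopontin, stood at 517 CPM in KO against 231 CPM in WT cells without treatment, and 2404 CPM in KO against 724 CPM in WT cells after anti-PD1, 2.24-fold (2.06 to 2.44) and 3.32-fold (3.25 to 3.39) higher in KO. Thbs1 differed less, at 1.70-fold (1.60 to 1.82) higher in KO without treatment and 1.16-fold (1.13 to 1.18) higher after anti-PD1. The protease gene Mmp8, also read in neutrophils, was 3.78-fold (2.48 to 6.25) and 1.92-fold (1.27 to 2.97) higher in KO. The summed level of 9 neutrophil genes outside the rule was 221 CPM in untreated KO and 129 CPM in untreated WT members, and 95.4 CPM in anti-PD1 KO and 73.5 CPM in anti-PD1 WT members, and its part in Mmp8 was not tested.

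**Figure D4:**
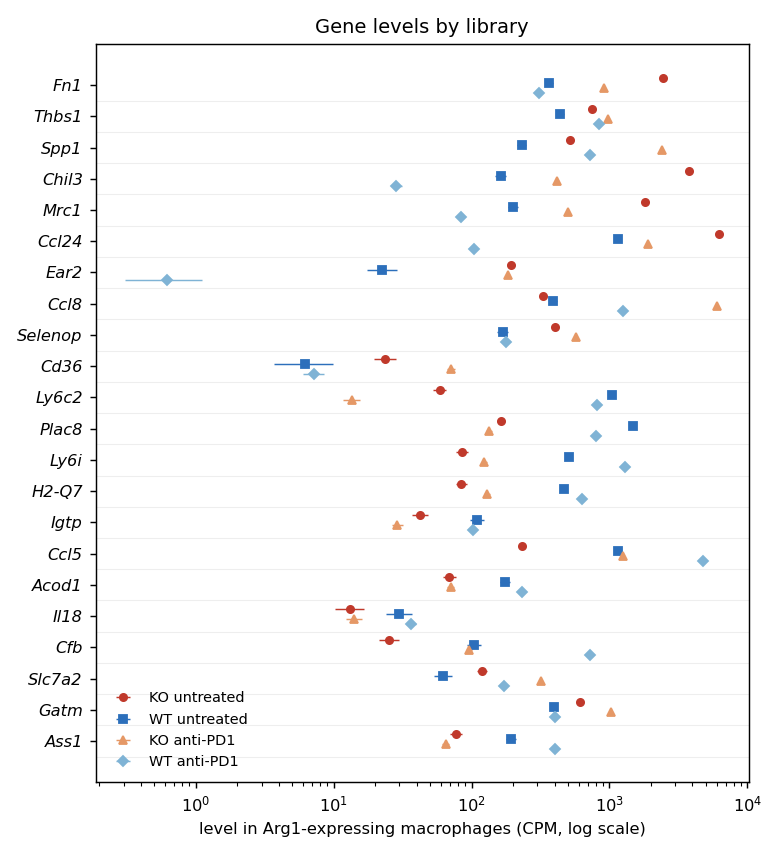
Level of named genes in Arg1-expressing macrophages (CPM, log scale) in each library, with 95% Poisson intervals for counting error. Genes from Fn1 to Cd36 lie mostly to the right in KO, with Ccl8 lower in KO without treatment (332 CPM in KO against 392.3 CPM in WT), genes from Ly6c2 to Cfb to the left in KO, and Slc7a2 and Gatm are higher in KO while Ass1 is lower.

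The arginine pathway around Arg1 differed gene by gene. Of its measured members other than Arg1 and Nos2, 12 of 18 were higher in KO members without treatment and 14 of 19 after anti-PD1. Of all genes, 54.6% and 57.6% were higher. The list medians were 0.25 (-0.11 to 0.58) and 0.37 (-0.18 to 0.78), with intervals that span 0. In each pair 2 were at least 2-fold higher, where 3.74% and 9.1% of all genes were. In each pair 1 was at least 2-fold lower, where 3.08% and 6.93% of all genes were. Slc7a2, the arginine importer, stood at 119 CPM in KO against 61.9 CPM in WT cells without treatment, and 316 CPM in KO against 173 CPM in WT cells after anti-PD1, 1.92-fold (1.62 to 2.28) and 1.83-fold (1.75 to 1.92) higher in KO. Slc7a1, another importer, differed less, at 31.2 CPM in KO against 28.7 CPM in WT cells without treatment, and 26.0 CPM in KO against 17.9 CPM in WT cells after anti-PD1. Ass1, which with Asl rebuilds arginine from citrulline, stood at 76.7 CPM in KO against 194 CPM in WT cells without treatment, and 64.8 CPM in KO against 406 CPM in WT cells after anti-PD1. It was 2.53-fold (2.22 to 2.88) and 6.26-fold (5.86 to 6.70) lower in KO, so both WT libraries lay above both KO libraries. Asl was 1.32-fold (1.08 to 1.60) and 1.21-fold (1.05 to 1.40) lower. Gatm, which uses arginine to start creatine synthesis, stood at 607 CPM in KO against 393 CPM in WT cells without treatment, and 1029 CPM in KO against 399.9 CPM in WT cells after anti-PD1, and was also higher in members than in other macrophages in all 4 libraries. Arg2, the mitochondrial arginase, stood at 24.9 CPM in KO against 44.9 CPM in WT cells without treatment, and 48.9 CPM in KO against 55.4 CPM in WT cells after anti-PD1.

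Downstream of arginase, Odc1, which turns ornithine into putrescine, stood at 166 CPM in KO against 137 CPM in WT cells without treatment, and 194 CPM in KO against 159.8 CPM in WT cells after anti-PD1, 1.21-fold (1.07 to 1.37) and 1.21-fold (1.15 to 1.28) higher in KO. Azin1, which protects that enzyme from breakdown, was 1.31-fold (1.15 to 1.5) and 1.75-fold (1.60 to 1.91) higher, and the antizyme gene Oaz1 that promotes the breakdown had log2 ratios of 0.03 and 0.10. Spermine synthase (Sms) was 2.08-fold (1.75 to 2.49) higher in KO after anti-PD1, with a log2 ratio of 0.27 (-0.22 to 0.81) without treatment. Spermidine synthase (Srm) had log2 ratios of 0.23 and -0.37. Toward proline, ornithine aminotransferase (Oat) stood at 70.6 CPM in KO against 31.1 CPM in WT cells without treatment, and 33.4 CPM in KO against 29.8 CPM in WT cells after anti-PD1, and Aldh18a1, which makes the shared precursor from glutamate, was 2.10-fold (1.28 to 3.76) and 1.42-fold (1.06 to 1.90) higher in KO. The polyamine transporter Atp13a3 was 1.49-fold and 1.66-fold higher. Amd1, Oaz2, Sat1 and Smox had log2 ratios between -0.41 and 0.78 over both pairs.

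The monocyte genes Ly6c2, Plac8 and Ly6i were lower in KO members, and most genes of the tissue macrophage list were higher, while C1qa was lower. Ly6c2 (chromosome 15, 75108158 to 75111970, minus strand) stood at 58.8 CPM in KO against 1045 CPM in WT cells without treatment, and 13.5 CPM in KO against 805 CPM in WT cells after anti-PD1, 17.7-fold (15.8 to 20.0) and 59.5-fold (52.0 to 68.7) lower in KO. Plac8, a small protein of monocytes, stood at 164 CPM in KO against 1483 CPM in WT cells without treatment, and 134 CPM in KO against 802 CPM in WT cells after anti-PD1, and Ly6i, a relative of Ly6c2, at 85.3 CPM in KO against 508 CPM in WT cells without treatment, and 124 CPM in KO against 1297 CPM in WT cells after anti-PD1. Both WT libraries lay above both KO libraries for all 3 genes. The other macrophages lay on the same side for Ly6c2, at 111 CPM in KO against 1700 CPM in WT cells without treatment. After anti-PD1 they stood at 8.28 CPM in KO against 1334 CPM in WT cells. The monocyte list as a whole did not lean one way without treatment, with 11 of 21 genes higher in KO (median 0.10), where 54.6% of all genes were. After anti-PD1, 15 of 21 were lower (median -0.93), where 42.4% of all genes were. In the other macrophages the medians were -0.22 and -1.19 for monocyte genes, and 0.36 and 0.90 for tissue macrophage genes. Ccr2, the receptor through which monocytes leave the marrow, was higher in KO, at 492 CPM in KO against 243 CPM in WT cells without treatment, and 179.9 CPM in KO against 85.1 CPM in WT cells after anti-PD1. Tissue macrophage genes were higher in KO for 13 of 16 genes without treatment (median 0.49) and 16 of 18 after anti-PD1 (median 0.69), where 54.6% and 57.6% of all genes were. Among them was the selenium carrier Selenop, at 399.8 CPM in KO against 169 CPM in WT cells without treatment, and 570.2 CPM in KO against 177 CPM in WT cells after anti-PD1. The complement gene C1qa went the other way, at 2094 CPM in KO against 2662 CPM in WT cells without treatment. After anti-PD1 it stood at 2600 CPM in KO against 5191 CPM in WT cells.

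Cell by cell, the members of the 4 libraries held different mixtures of these genes. In members thinned to 3000 UMIs, UMIs of the complement C1q genes without Ly6c2 were found in 79.2% of untreated KO and 34.3% of untreated WT cells, and in 94.2% of anti-PD1 KO and 47.1% of anti-PD1 WT cells. Both C1q and Ly6c2 were found in 5.64% of untreated KO and 42.5% of untreated WT cells, and in 3.11% of anti-PD1 KO and 44.0% of anti-PD1 WT cells. Ly6c2 alone was found in 1.23% of untreated KO and 20.9% of untreated WT cells, and in 0.428% of anti-PD1 KO and 7.14% of anti-PD1 WT cells. UMIs of both kinds were thus found together more often in WT than in KO members. Thinned T cells held a Ly6c2 UMI in 13.6% of untreated KO and 47.9% of untreated WT cells, and in 10.4% of anti-PD1 KO and 24.7% of anti-PD1 WT cells, and T cells can express that gene themselves. They held a C1qa UMI in 4.30% of untreated KO, 5.94% of untreated WT, 23.3% of anti-PD1 KO and 28.1% of anti-PD1 WT cells, against 73.3%, 66.4%, 93.8% and 84.8% of members in that order, and how far free RNA adds to the cells with both was not tested.

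Lipid handling and oxidative phosphorylation genes were near even between KO and WT members without treatment and higher in KO after anti-PD1. Of the lipid genes, 15 of 30 were higher in KO without treatment (median 0.03) and 25 of 32 after anti-PD1 (median 0.61), where 54.6% and 57.6% of all genes were. In the other macrophages the medians were -0.09 and 0.94 for lipid genes, and -0.02 and 0.39 for oxidative phosphorylation genes. Cd36, a fatty acid and lipoprotein receptor, stood at 23.6 CPM in KO against 6.22 CPM in WT cells without treatment, and 70.9 CPM in KO against 7.17 CPM in WT cells after anti-PD1, 3.71-fold (2.30 to 6.61) and 9.85-fold (8.23 to 12) higher in KO. Olr1, an oxidised lipoprotein receptor, was 2.43-fold (1.65 to 3.79) and 3.76-fold (3.36 to 4.21) higher, and Fabp4, a fatty acid carrier, 3.95-fold (2.18 to 8.54) and 2.83-fold (2.32 to 3.48) higher. Oxidative phosphorylation genes had a median of 0.05 without treatment, which turned to -0.01 with TMM scaling. After anti-PD1 the median was 0.67, with 36 of 43 genes higher in KO, where 57.6% of all genes were. Ndufa4, a respiratory chain subunit, stood at 177 CPM in KO against 85.0 CPM in WT cells without treatment, and 187 CPM in KO against 46.2 CPM in WT cells after anti-PD1. Hypoxia and glycolysis genes were lower in KO for 25 of 32 genes without treatment (median -0.40) and for 18 of 36 after anti-PD1 (median -0.02), where 45.4% and 42.4% of all genes were. The glycolytic enzyme Tpi1 was 1.99-fold (1.86 to 2.14) and 2.53-fold (2.45 to 2.62) lower in KO, and the lactate exporter Slc16a3 2.43-fold (2.14 to 2.75) and 1.54-fold (1.46 to 1.62) lower. Fth1, the ferritin heavy chain that stores iron, stood at 9532 CPM in KO against 19263 CPM in WT cells without treatment, and 16631 CPM in KO against 32544 CPM in WT cells after anti-PD1, 2.02-fold (2.0 to 2.05) and 1.96-fold (1.95 to 1.97) lower in KO.

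**Figure D5:**
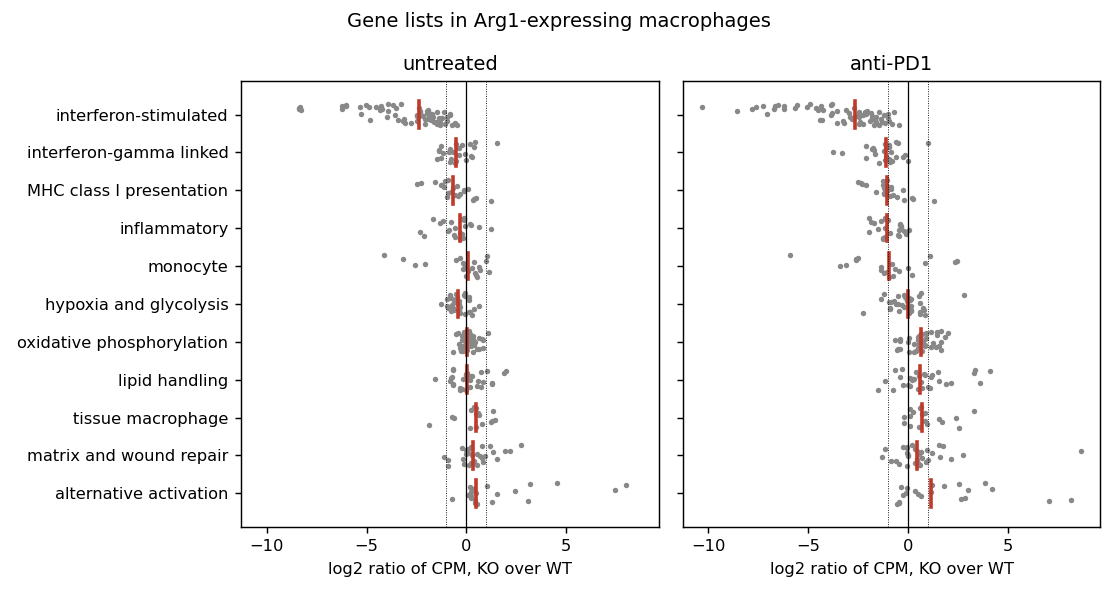
Log2 ratio of CPM, KO over WT, in Arg1-expressing macrophages of the untreated and the anti-PD1 pair. Each point is a measured gene of a list, red bars are list medians and dotted lines mark 2-fold. Every interferon-stimulated gene lies below 0 in both panels (medians -2.39 and -2.67), and the inflammatory and monocyte medians are further below 0 in the anti-PD1 panel.

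The remaining lists are given by their medians, beside 0.05 and 0.12 over all genes. Checkpoint ligands and suppressive receptors had medians of -0.07 and -0.06, within which Cd274, which encodes PD-L1, a ligand of PD-1, stood at 145 CPM in KO against 249 CPM in WT cells without treatment, and 206 CPM in KO against 403 CPM in WT cells after anti-PD1, 1.72-fold (1.55 to 1.91) and 1.96-fold (1.88 to 2.04) lower in KO. Lgals9, galectin 9, was 1.64-fold and 2.70-fold lower and the adhesion receptor Slamf7 2.35-fold and 1.86-fold lower. Cell cycle genes had medians of 0.16 and 0.29, heme, iron and oxidative stress genes 0.19 and -0.02, and amino acid stress genes -0.21 and -0.44. Chemokines and receptors had -0.11 and 0.29, and complement genes -0.32 and -0.31. Dissociation and immediate early genes, which tissue handling can raise, had medians of 0.03 and -0.49.

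Outside the lists, the genes highest in KO members in both pairs began with neighbours on the X chromosome. Arhgap6, a GTPase activator (chromosome X, 168795099 to 169304435, plus strand), stood at 33.1 CPM in KO against 2.07 CPM in WT cells without treatment, and 633 CPM in KO against 2.02 CPM in WT cells after anti-PD1. Mid1, a ubiquitin ligase (chromosome X, 169685199 to 170005736, plus strand), stood at 389 CPM in KO against 29.4 CPM in WT cells without treatment, and 180.4 CPM in KO against 14.7 CPM in WT cells after anti-PD1. The other macrophages showed the same, with log2 ratios of 3.57 and 8.54 for Arhgap6 and 3.88 and 3.81 for Mid1. Npl, an enzyme that breaks down sialic acid, was 9.04-fold (4.72 to 22.6) and 7.82-fold (6.29 to 9.90) higher in KO members. Gja1, a gap junction protein, was 5.91-fold (3.32 to 12.7) and 8.97-fold (4.53 to 22.8) higher, the adhesion protein gene Tns1 5.15-fold (3.71 to 7.52) and 5.91-fold (4.56 to 7.86), and the calcium channel gene Trpv4 5.16-fold (2.26 to 18.0) and 4.87-fold (2.76 to 9.68).

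Transcripts of other cell types among the members were low but uneven. The summed level of 8 microglial genes outside the rule was 303 CPM in untreated KO, 291 CPM in untreated WT, 1349.6 CPM in anti-PD1 KO and 1429 CPM in anti-PD1 WT and includes genes that macrophages also express. That sum was about equal between KO and WT within each pair and higher in the anti-PD1 pair. Single genes were not, since of 6 measured in the anti-PD1 pair 3 were at least 2-fold higher in KO and 2 at least 2-fold lower. Of all genes there, 9.1% and 6.93% were. Natural killer genes (8 genes) summed to 46.1 CPM in untreated KO, 134 CPM in untreated WT, 8.55 CPM in anti-PD1 KO and 38.0 CPM in anti-PD1 WT, T cell genes (8) to 34.6 CPM in untreated KO, 78.8 CPM in untreated WT, 41.0 CPM in anti-PD1 KO and 40.2 CPM in anti-PD1 WT and B cell genes (6) to 21.7 CPM in untreated KO, 76.0 CPM in untreated WT, 21.3 CPM in anti-PD1 KO and 12.2 CPM in anti-PD1 WT. Natural killer genes were lower in KO than in WT in both pairs, and T cell and B cell genes without treatment, the same side as the inflammatory genes above. Ncr1 was at 0 in both anti-PD1 libraries. Tumour and glial genes (11) summed to 21.7 CPM in untreated KO, 26.6 CPM in untreated WT, 37.1 CPM in anti-PD1 KO and 30.9 CPM in anti-PD1 WT, with Sox2 at 0 in both KO libraries, endothelial and mural genes (7) to 102 CPM in untreated KO, 77.1 CPM in untreated WT, 62.2 CPM in anti-PD1 KO and 44.3 CPM in anti-PD1 WT, and mast cell and basophil genes (6) to 12.4 CPM in untreated KO, 13.5 CPM in untreated WT, 1.80 CPM in anti-PD1 KO and 1.23 CPM in anti-PD1 WT. Red cell genes (5) summed to 0 to 0.346 CPM. The part of these transcripts in the results was not tested.

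Members of the anti-PD1 libraries were set against those of the untreated libraries within each genotype. Treatment, day of sorting, the mix of CD3-positive and CD3-negative cells, the Cell Ranger version and the kind of library all changed together here, so they cannot be told apart. In KO, 1020 of 10079 genes (10.1%) were at least 2-fold higher after anti-PD1 and 1320 (13.1%) at least 2-fold lower, and in WT 676 of 9818 (6.89%) and 1261 (12.8%). The all-gene medians were -0.24 in KO and -0.21 in WT, and with TMM scaling the higher part of the genes past 2-fold was 63.2% in place of 43.6% in KO and 52.6% in place of 34.9% in WT. Relative to those medians, MHC class II genes were higher after anti-PD1, with medians of 0.38 in KO (10 of 12 higher, where 37.3% of all genes were) and 1.04 in WT (11 of 12 higher, where 37.9% of all genes were). Dissociation and immediate early genes had medians of -1.68 in KO (20 of 21 lower, where 62.7% of all genes were) and -0.54 in WT (15 of 21 lower, where 62.1% of all genes were). Monocyte genes had medians of -1.62 in KO and -0.47 in WT, and alternative activation genes -0.89 and -0.80.

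Several of the largest differences were close to all or none. Apoc2, an apolipoprotein that activates lipoprotein lipase, stood at 326 CPM in anti-PD1 KO against 0.761 CPM in untreated KO members, and at 505 CPM in anti-PD1 WT against 0.346 CPM in untreated WT members. Fgfr2, a growth factor receptor gene, had 522 UMIs in anti-PD1 KO and 800 in anti-PD1 WT members against 0 in both untreated libraries, and the phosphodiesterase gene Pde1c had 2253 UMIs in anti-PD1 KO and 414 in anti-PD1 WT members against 0 in both untreated libraries. The leptin receptor gene Lepr stood at 0.450 CPM in anti-PD1 KO against 170.1 CPM in untreated KO members, and at 0.0561 CPM in anti-PD1 WT against 110.3 CPM in untreated WT members. Such genes were likewise extreme in the other macrophages, with Apoc2 there at 182 CPM in anti-PD1 KO against 0.936 CPM in untreated KO and 277 CPM in anti-PD1 WT against 0.762 CPM in untreated WT. The heat shock gene Hspa1b stood at 59.1 CPM in anti-PD1 KO against 3102 CPM in untreated KO members and 14.9 CPM in anti-PD1 WT against 2367 CPM in untreated WT members. Hes1, a Notch target, stood at 11.3 CPM in anti-PD1 KO against 611 CPM in untreated KO members and 6.0 CPM in anti-PD1 WT against 323 CPM in untreated WT members. Ccl8 stood at 6041 CPM in anti-PD1 KO against 332 CPM in untreated KO and 1262 CPM in anti-PD1 WT against 392.3 CPM in untreated WT members, 18.2-fold (17.4 to 19.1) and 3.21-fold (3.03 to 3.42) higher.

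Beside the Nos2- and Retnla-expressing macrophages of the anti-PD1 libraries, the members held a middle place in some genes. Ccl8 stood in anti-PD1 KO at 6041 CPM in members, 8877 CPM in Nos2-expressing, 24562 CPM in Retnla-expressing and 1889 CPM in other macrophages. Chil3 stood there at 418 CPM in members, 707 CPM in Nos2-expressing, 1612 CPM in Retnla-expressing and 72.2 CPM in other macrophages. Pdpn was higher in the Nos2-expressing kind, at 93.8 CPM in members and 213 CPM in Nos2-expressing macrophages of anti-PD1 KO, and 121 CPM in members and 159.9 CPM in Nos2-expressing macrophages of anti-PD1 WT. In anti-PD1 KO, Fn1 differed less across the Arg1-rich kinds, at 920.1 CPM in members, 865 CPM in Nos2-expressing and 798 CPM in Retnla-expressing macrophages. Thbs1 was highest in members there, at 974, 741 and 408 CPM in that order. Mrc1 (499 CPM in members, 837 CPM in Retnla-expressing) and Ccl24 (1894 and 5085 CPM) were higher in the Retnla-expressing kind. For anti-PD1 WT members and Nos2-expressing cells, Fn1 was 309 and 312 CPM, Thbs1 843 and 827, Mrc1 83.7 and 53.4, and Ccl24 104 and 51.3. In anti-PD1 WT, Arg1 stood at 2186 CPM in members and 2262 CPM in Nos2-expressing macrophages, and Ly6c2 at 805 CPM in members and 1008 CPM in Nos2-expressing macrophages. The arginine importer Slc7a2 was 173 CPM in members and 323 CPM in Nos2-expressing cells of anti-PD1 WT, and 316 CPM in members and 829.9 CPM in Nos2-expressing cells of anti-PD1 KO.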

How the data were processed

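Single cells were read in 4 libraries, 1 per combination of genotype and treatment, per the labels. The authors deposited UMI counts for each gene in each barcode, with no normalization. Per the file headers they came from Cell Ranger 3.1.0 for the untreated and 7.2.0 for the anti-PD1 libraries, and per the submitters' processing notes the builds were mm10 and GRCm38. How intronic reads were counted is not given in the sources used here, and since intron-rich genes gain from it, the contrast between versions can carry it. The 30406 genes shared by all libraries were used. Mx1, Mx2, Ifi30, Marchf1 and Aldoa were not among them under those symbols.

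Counts were summed over the members of a library and scaled to CPM. The log2 ratio of CPM used a pseudocount of 0.5 counts and covered genes with 50 or more UMIs summed over both libraries, with an exact conditional binomial 95% interval. CPM values have exact Poisson intervals and shares exact Clopper-Pearson intervals. UMIs remove amplification copies, but the intervals cover counting error only. A gene past 2-fold counts as different, no test was run, and a library at 0 was set to a floor of 3 counts. No doublets were removed other than through the T cell, dendritic and neutrophil limits, and removal by Scrublet scores at 0.8% per 1000 barcodes was an alternative. The summing and ratio steps were tested on simulated counts. Promoters came from the RefSeq table of GRCm38.p6 and gene positions from the GRCm38 annotation. Python 3.11.15, numpy 2.4.6, scipy 1.17.1, pandas 2.3.3, scanpy 1.11.5, matplotlib 3.10.9 and R 4.3.3 with edgeR 4.0.16 and DESeq2 1.42.0 (for scale factors alone) were used.

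The members, the gene lists and the naming rule were chosen with earlier results of these data known. Named genes were Arg1, Fn1 and Thbs1, all measured arginine pathway genes, up to 3 genes of every other list that lay on the same side KO over WT in both pairs, ranked by the smaller log2 ratio, 6 highest and 6 lowest genes outside the lists ranked alike, 6 and 6 for anti-PD1 over untreated, 10 and 10 for members over other macrophages, and 4 and 4 by the difference between the pairs. The shared side of the named genes is thus fixed by the rule. Genes of antigen receptor segments, mitochondria, ribosomes, haemoglobin and the sex chromosomes' Xist, Tsix and Y genes, predicted gene models and the genes of the cell rule were left out of the ranked parts. Genes outside that rule (Ifnar1, Ifnar2, Isg15, Ccr2, Adgre1, Itgam, the C1q genes, Cd163 and the values by Arg1 level) were chosen after their values were seen. A few genes are not reported here. Alternatives were an Arg1 minimum of 2 or 5 UMIs, thinning to 3000 UMIs, at least 500 genes with at most 5% mitochondrial UMIs, Scrublet removal, cells with Nos2 or Retnla kept, TMM and DESeq2 factors, cells of equal weight, a minimum of 10 or 200 UMIs, and an adjustment for intron length.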

Additional observations from a re-analysis of the deposited data

Results flagged for a closer look

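For 4 genes the KO over WT difference in Arg1-expressing macrophages pointed in opposite directions in the untreated and the anti-PD1 pair. The log2 ratio of Pf4, platelet factor 4, was -1.15 without treatment and 2.18 after anti-PD1. Ets1, a transcription factor gene, had -1.46 and 2.78, and Ctla2a, a protease inhibitor gene, had -1.38 and 2.85. Jaml, a junctional adhesion protein gene, went the other way, with 2.36 without treatment and -2.16 after anti-PD1. With 1 library per group that contrast of the pairs was not tested for any of them, and the pairs also differ in day, sorting mix and software version.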

How the results depend on the processing

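No paired analysis was possible because each group has 1 library, and no replicate could be left out for the same reason. The share of Arg1-expressing macrophages moved with the Arg1 minimum and the depth, and KO stayed above WT in both pairs under every alternative, by 20.6 to 36.0 percentage points without treatment and by 7.17 to 19.8 after anti-PD1. With a minimum of 2 UMIs the shares were 54.4% in untreated KO and 18.5% in untreated WT, and 64.6% in anti-PD1 KO and 50.7% in anti-PD1 WT. With a minimum of 5 they were 43.1%, 13.1%, 48.7% and 39.1% in that order, and in cells thinned to 3000 UMIs 31.7%, 11.1%, 54.7% and 34.9%. The stricter cell filter gave 60.0% in anti-PD1 KO. With Nos2- and Retnla-expressing cells kept, the share was 62.2% in anti-PD1 KO and 55.0% in anti-PD1 WT.

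Counts of genes past 2-fold followed the UMI minimum by construction. At a minimum of 10 UMIs, 639 genes were higher and 631 lower in KO without treatment, and 1645 were higher in KO after anti-PD1, against 140, 138 and 608 at a minimum of 200. For anti-PD1 over untreated, 1717 genes were higher and 1989 lower in KO, and 1179 higher and 2037 lower in WT at a minimum of 10, against 657, 743, 417 and 699 at 200. Lower genes in that contrast numbered 796 in KO and 829 in WT with TMM factors, 788 and 829 with DESeq2 factors and 795 and 827 after adjustment for intron length.

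The interferon-stimulated median ranged from -2.63 to -2.31 without treatment and from -2.79 to -2.56 after anti-PD1 over all alternatives. With TMM factors the untreated KO over WT medians of lipid handling (-0.03), oxidative phosphorylation (-0.01) and dissociation genes (-0.02) changed sign, all near 0. Among single genes, Gzma, a natural killer gene, turned to 0.44 KO over WT without treatment when cells weighed alike, and Kit to 0.19 members over others in untreated WT after thinning. The cause was not tested for either. Depth limits the members of untreated WT most, with 275 cells and 2893155 UMIs.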

Other observations

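Cd163, the haemoglobin scavenger receptor of tissue macrophages, was near all or none by library. Members held 229 Cd163 UMIs (43.6 CPM) in untreated KO and 0 in untreated WT, and 14 UMIs (0.9 CPM) in anti-PD1 KO and 11 UMIs (0.617 CPM) in anti-PD1 WT. It was named after its values were seen.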
